A study of Arabidopsis thaliana with 12 samples.

Results

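Sulfate withdrawal changed the shoot transcriptome of both Arabidopsis thaliana genotypes studied, and the comparison described here asks where the mutant cdk8-1 answered it differently from Col-0. The interaction is the response of cdk8-1 (without minus with sulfate) minus the response of Col-0, and it uses all 12 libraries of the series. Shoots were cut with a razor blade from 10-day-old seedlings of Col-0, the laboratory wild type, and of cdk8-1, a line mutated in CDK8. The medium held 1.5 mM MgSO4 for the groups with sulfate. For the groups without it MgCl2 took its place, which leaves 0 mM of the sulfate salt and also changes chloride. Days were 16 h long. Each of the 4 groups held 3 libraries, all with the same batch label, and cdk8-1 was represented by a single line. Of 32833 loci in the deposited table, 19127 reached a mean of 1 TPM, a length-corrected share of a library's transcripts, over the 12 libraries and were tested. No source used here states whether replicates came from separate plates, and each p-value therefore reflects variation among these libraries, which may be technical. In whole shoots, fewer cells of a type and less RNA per cell cannot be told apart.

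CDK8 is the kinase of a detachable module of Mediator, the complex that links DNA-bound transcription factors to RNA polymerase II, and the module is known both to restrain and to promote transcription. Plants short of sulfate raise sulfate transporters and enzymes that free sulfur from glucosinolates and glutathione, lower glucosinolate synthesis and, when shortage lasts, lose photosynthetic capacity and show defence and senescence transcripts. Jasmonate, a lipid hormone made from plastid membranes, controls much of the glucosinolate and wound response in Arabidopsis leaves.

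In CDK8 (AT5G63610), the mutated gene, the libraries held 21.0, 23.1 and 24.4 TPM in Col-0 with sulfate, 33.3, 33.6 and 32.7 TPM in Col-0 without it, 2.96, 4.01 and 4.99 TPM in cdk8-1 with sulfate and 5.19, 5.20 and 6.09 TPM in cdk8-1 without it. Every cdk8-1 library lay below every Col-0 library, and some transcript of the locus remained. The interaction of CDK8 was -0.13 ± 0.18 on the log2 scale (SE; limma adjusted p = 0.65). Recovered depth was 17441215 to 25175871 reads per library. Summed photosynthesis transcripts, a check of the shoot label, were 187852 to 210201 TPM with sulfate in both genotypes, 12241 to 12658 TPM in Col-0 without sulfate and 31312 to 38972 TPM in cdk8-1 without it. Root markers summed to at most 24.5 TPM in any library, and seed storage markers to at most 4.76 TPM except for 218 TPM in cdk8-1 with sulfate replicate 1.

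Most of the interaction was a weaker response of cdk8-1 to sulfate withdrawal. Responses are differences in log2(TPM + 1) and, because the median locus rose by 0.46 in Col-0 and 0.45 in cdk8-1 on the deposited scale and by 0.05 and 0.03 after median-of-ratios scaling, they are given relative to the median locus. Across the 19127 loci the cdk8-1 response followed the Col-0 response with a least-squares slope of 0.733, called the general line below. Pearson's r was 0.932 over loci, which are not independent replicates. The slope was 0.773 when fitted orthogonally, which does not treat the Col-0 response as free of error. Over all loci 70.9% had a smaller response in cdk8-1. The next 2 sets were chosen by a large response in Col-0, the genotype against which cdk8-1 is compared, so their shares are a description. Of 3541 loci that rose by at least 1 in Col-0, 83.6% had a smaller response in cdk8-1, with a median ratio of 0.773. Of 4646 loci that fell by at least 1, 89.5% had a smaller response, with a median ratio of 0.757. Placed on the Col-0 axis from 0 (with sulfate) to 1 (without), the cdk8-1 libraries with sulfate lay at 0.00996 to 0.0377 and those without sulfate at 0.742 to 0.778, while the Col-0 libraries without sulfate lay at 0.989 to 1.01. The groups did not overlap on this axis. Because the Col-0 libraries set the axis, their means lie at 0 and 1 by construction, and the separation was not tested.

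In the limma test, 5171 loci (27% of those tested) had an interaction past an adjusted p of 0.05, 2831 higher (14.8%) and 2340 lower (12.2%) in the response of cdk8-1. Those of at least 1 in size were 1024 higher (5.35%) and 744 lower (3.89%). The responses themselves passed at 84.9% of loci in Col-0 and 81.6% in cdk8-1. A second contrast, the departure, subtracted the response that the general line gives for each locus and asked what remained. It called 3465 loci (18.1%), 1637 higher (8.56%) and 1828 lower (9.56%), of which 429 (2.24%) and 337 (1.76%) were at least 1 in size. Of the 5171 interaction calls, 3075 (16.1% of loci) did not pass the departure test, and 2096 (11%) passed both. Calls were then sorted by the sizes of both responses relative to the median locus, with 0.5 as the least size counted as a response. The largest class was a weaker response in cdk8-1 with 3168 loci (16.6%), of which 736 also passed the departure test. The departure had the sign of the interaction at 330 of 448 such loci with a higher interaction and 259 of 288 with a lower. The rest lay nearer to the Col-0 response than the general line gives. A response in Col-0 alone was found at 996 loci (5.21%), a response in cdk8-1 alone at 305 (1.59%), a stronger response in cdk8-1 at 238 (1.24%) and opposite responses at 69 (0.361%), while 395 (2.07%) were small in both. The class of opposite responses depended most on the settings, with 19 loci at a pseudocount of 5, 30 at a mean of at least 5 TPM and 5 with responses of at least 1. At the threshold, PUB14 and WRKY13 were just inside (adjusted p = 0.0499862), and SR34a (0.05006) and AT2G04390 (0.0501153) just outside.

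**Figure D1:**
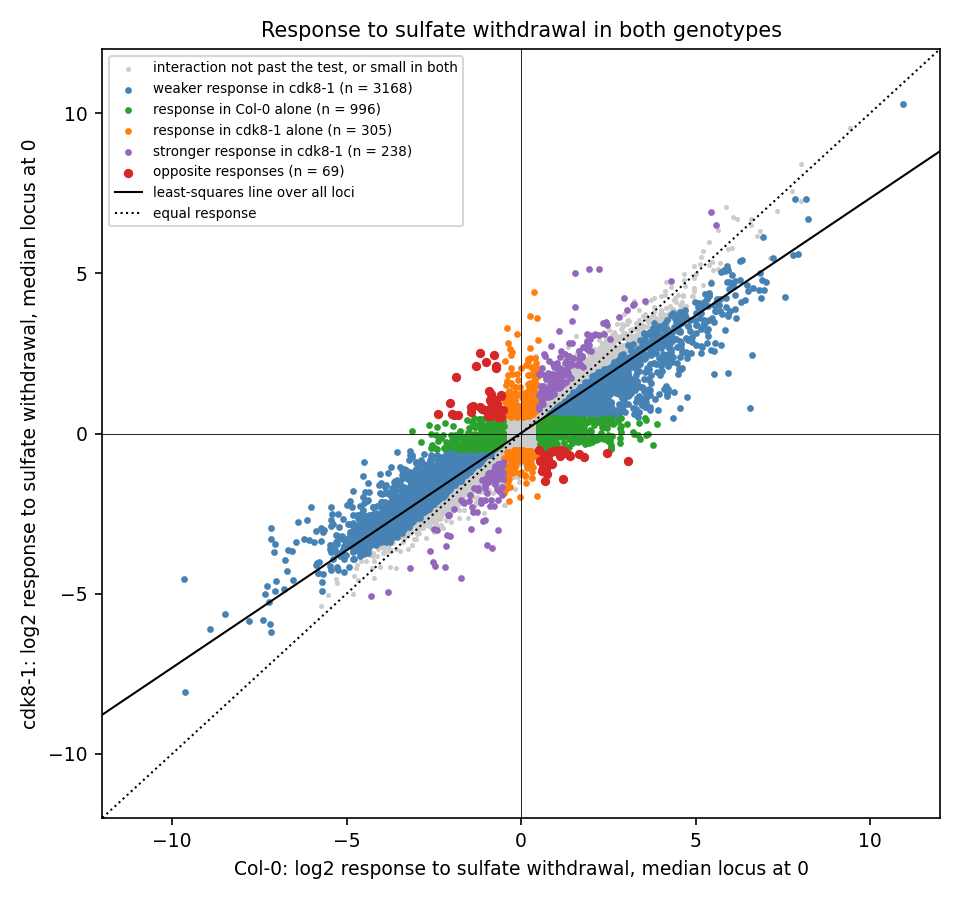
Response of each tested locus to sulfate withdrawal in cdk8-1 (vertical axis) against Col-0 (horizontal axis), both in log2 relative to the median locus, with interaction calls coloured by class. The cloud follows the solid line of slope 0.733, flatter than the dotted line of equal response, and the 69 opposite responses lie in the upper left and lower right.

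Windows upstream of 6 members are shown because they held motifs whose sites can be seen beside the values given further on. They are the 250 bases before the annotated gene start in the TAIR10.1 assembly (RefSeq), none of which overlaps another annotated locus, and the build used by the authors is not given in the sources used here. Capitals in the first 3 mark a palindrome of CTT, any 7 bases and AAG, which the DNA damage factor SOG1 is known to bind, and in the last 3 the G-box CACGTG, bound by bHLH and bZIP factors. SMR7 lies on the minus strand (chr3:10231568-10231817), PARP2 and AT4G05380 on the plus strand (chr4:1049516-1049765 and chr4:2735859-2736108), BTS on the plus strand (chr3:6273716-6273965), and BHLH100 and LHY on the minus strand (chr2:17199455-17199704 and chr1:37872-38121).
SMR7: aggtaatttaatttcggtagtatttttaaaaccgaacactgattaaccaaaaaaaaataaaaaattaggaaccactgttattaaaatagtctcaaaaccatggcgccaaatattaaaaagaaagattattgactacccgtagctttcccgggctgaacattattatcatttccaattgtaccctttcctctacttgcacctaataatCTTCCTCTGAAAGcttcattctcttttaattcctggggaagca
PARP2: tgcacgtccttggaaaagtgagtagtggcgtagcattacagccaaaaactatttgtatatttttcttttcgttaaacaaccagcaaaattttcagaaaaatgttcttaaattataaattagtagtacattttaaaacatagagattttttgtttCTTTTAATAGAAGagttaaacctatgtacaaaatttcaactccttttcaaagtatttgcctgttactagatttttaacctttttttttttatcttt
AT4G05380: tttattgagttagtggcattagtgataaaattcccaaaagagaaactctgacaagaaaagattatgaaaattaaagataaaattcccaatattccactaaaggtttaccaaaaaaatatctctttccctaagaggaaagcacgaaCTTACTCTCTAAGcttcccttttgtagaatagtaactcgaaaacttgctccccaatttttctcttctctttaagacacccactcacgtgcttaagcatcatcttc
BTS: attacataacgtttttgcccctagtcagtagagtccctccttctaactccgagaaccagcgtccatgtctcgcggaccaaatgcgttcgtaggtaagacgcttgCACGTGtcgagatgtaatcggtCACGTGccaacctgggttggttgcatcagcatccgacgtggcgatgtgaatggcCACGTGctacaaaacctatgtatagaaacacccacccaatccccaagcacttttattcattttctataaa
BHLH100: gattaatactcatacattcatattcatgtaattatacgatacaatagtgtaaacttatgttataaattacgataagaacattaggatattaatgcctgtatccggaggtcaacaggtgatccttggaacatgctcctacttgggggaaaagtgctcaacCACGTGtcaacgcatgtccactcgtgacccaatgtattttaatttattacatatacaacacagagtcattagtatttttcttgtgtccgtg
LHY: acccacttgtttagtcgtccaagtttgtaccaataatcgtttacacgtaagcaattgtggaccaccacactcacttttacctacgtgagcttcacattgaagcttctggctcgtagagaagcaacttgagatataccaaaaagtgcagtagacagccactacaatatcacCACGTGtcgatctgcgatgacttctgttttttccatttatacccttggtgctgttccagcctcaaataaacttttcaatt
The first 3 genes were far higher in cdk8-1 without sulfate than in the other groups, and the last 3 were higher in cdk8-1 than in Col-0 with sulfate. The motifs did not separate these sets, since the windows of BHLH100 and LHY also held the palindrome and that of AT4G05380 a G-box. Searched on both strands in the windows of 19126 tested loci, the palindrome stood in 8.96% of all windows, in 12.5% of the 144 loci with a stronger and higher response, in 11.4% of the 175 with a higher response in cdk8-1 alone and in 7.5% of the 40 opposite loci with a higher response. Among loci with a lower interaction it was in 11.7% of the 94 with a stronger and 11% of the 1282 with a weaker response in cdk8-1. The G-box stood in 7.27% of all windows, in 18.1% of the 94 loci with a stronger and lower response and in 13.8% of the 29 opposite loci with a lower response. W-boxes (TTGACC or TTGACT), bound by WRKY factors, stood in 28.2% of all windows, and in 34.6% of the 1282 weaker and 34.3% of the 566 Col-0-alone loci with a lower interaction. The sulfur-responsive element core GAGAC was in 25.2% of all windows and in 32.5% of the 40 opposite loci with a higher response. In the other classes by direction it was in 22.3% to 26.9%. The evening element AAATATCT was in 4.96% of all windows and in 10.4% of the 144 loci with a stronger and higher response. In the other classes by direction it was in 0% to 7.21%. These shares are descriptions, and a match is not a bound site. The palindrome and the heat shock element GAANNTTC were added to the search after the values had been seen. The latter stood in 9.47% of all windows. It was in 16.7% of the 144 loci with a stronger and higher response and in 6.84% to 12.2% in the other classes by direction.

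Opposite responses covered 40 loci with a higher and 29 with a lower response in cdk8-1, and 68 of the 69 also passed the departure test. For loci past the interaction test the definition of this class nearly fixes that outcome, so the count is no separate support. The label is relative to the median locus: on the deposited scale 27 of the 69 passed the test of each response with opposite signs and 42 passed in a single genotype, and after median-of-ratios scaling 50 of 62 passed in both, 30 falling in Col-0 and rising in cdk8-1 and 20 the reverse. On the latter scale the Col-0 response of LTP4, AT3G53980 and AT3G12410 did not pass (limma adjusted p 0.066 to 0.133). Nor did the cdk8-1 response of PUM9 (0.264) and CYP79B2 (0.0745). A vegetative storage protein, a jasmonate synthesis enzyme, a mitotic cyclin and lipid transfer proteins stood among the higher responses. A sugar transporter pair and an indole-metabolism P450 stood among the lower.

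CYCB1;1 (AT4G37490), a mitotic cyclin whose transcript is also a marker of DNA damage in Arabidopsis, was at 8.80, 6.18 and 6.93 TPM in Col-0 with sulfate and 1.90, 2.66 and 1.87 TPM without it. In cdk8-1 it was at 8.79, 6.96 and 7.36 TPM with sulfate and 34.8, 40.2 and 43.6 TPM without it. The libraries of cdk8-1 without sulfate were above all 9 others and those of Col-0 without sulfate below all others. The interaction was 3.62 ± 0.21 (SE, limma adjusted p = 5.87e-07) and the departure 3.11 ± 0.18.

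VSP2 (AT5G24770), a vegetative storage protein and a common marker of the jasmonate response, stood at 74.4, 43.1 and 69.9 TPM in Col-0 with sulfate, 35.5, 30.1 and 35.1 TPM in Col-0 without it, 19.6, 10.5 and 13.6 TPM in cdk8-1 with sulfate and 111, 119.9 and 50.5 TPM in cdk8-1 without it. The genotypes did not overlap with sulfate, where Col-0 was higher, nor without it, where cdk8-1 was higher. Its response was -1.30 in Col-0 and 2.10 in cdk8-1, an interaction of 3.39 ± 0.43 (adjusted p = 1.23e-04). AOC1 (AT3G25760), an allene oxide cyclase of jasmonate synthesis, held 86.1 ± 14.8, 59.7 ± 4.09, 57.2 ± 11.5 and 129 ± 20.5 TPM (mean ± SD, n = 3) in Col-0 with and without sulfate and cdk8-1 with and without it. Its interaction was 1.68 ± 0.23 (adjusted p = 1.79e-04), and its close copies share sequence, so reads between them are uncertain.

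LTP4 (AT5G59310), a lipid transfer protein, was low and variable, at 3.09, 2.16 and 8.85 TPM in Col-0 with sulfate, 4.49, 1.78 and 0.855 TPM without it, 0.793, 0 and 0.344 TPM in cdk8-1 with sulfate and 13.1, 13.8 and 4.55 TPM without it. The genotypes did not overlap at either supply, Col-0 being higher with sulfate and cdk8-1 without it, while the Col-0 groups overlapped, and the interaction was 3.69 ± 0.71 (adjusted p = 0.00215). AT3G53980, annotated as a lipid transfer family protein, was at 1.25 ± 1.23 TPM in cdk8-1 with sulfate and at 11.4 ± 4.70 TPM without it, against 12.5 ± 3.23 and 10.2 ± 1.96 TPM in Col-0. Without sulfate the genotypes overlapped, so its interaction of 2.81 ± 0.52 came with a gap between genotypes that lay with sulfate. IAA19 (AT3G15540), an auxin-induced repressor of auxin signalling, showed the same layout, with 13.1 ± 1.89 and 10.1 ± 2.21 TPM in Col-0 and 5.11 ± 0.893 and 11.8 ± 1.47 TPM in cdk8-1 (interaction 1.42 ± 0.24).

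A pair of genes in this class was near 0 TPM outside cdk8-1 without sulfate, so their Col-0 responses lay close to the floor. After median-of-ratios scaling these were -0.72 for ABCA10 (limma adjusted p = 0.00119) and -0.38 for AT3G12410 (0.133). How far the floor set their opposite sign was not tested. ABCA10 (AT5G61740), an ABC transporter, was at 8.34, 8.62 and 9.97 TPM in cdk8-1 without sulfate and at no more than 1.1 TPM in the other 9 libraries (interaction 3.25 ± 0.22). AT3G12410, of the ribonuclease H-like family, was at 8.91, 9.82 and 6.21 TPM there and at no more than 0.574 TPM elsewhere (interaction 3.20 ± 0.30).

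Among lower responses, SAG29 (AT5G13170), a senescence-associated sugar transporter of the SWEET family, was at 3.32, 3.16 and 8.37 TPM in Col-0 with sulfate and 60.5, 68.0 and 60.3 TPM without it. In cdk8-1 it was at 14.5, 6.78 and 9.37 TPM with sulfate and 6.05, 5.43 and 10.8 TPM without it, so the rise seen in Col-0 had no counterpart in cdk8-1, whose groups overlapped. The interaction was -3.94 ± 0.46 (adjusted p = 6.04e-05). Another sugar transporter, SWEET2 (AT3G14770), was at 43.8, 50.8 and 54.5 TPM in Col-0 without sulfate and 10.3, 8.00 and 12.4 TPM in cdk8-1 without it, against 20.7, 16.3 and 9.56 and 22.5, 20.1 and 19.3 TPM with sulfate. Here Col-0 rose and cdk8-1 fell, with no overlap between the supplies in either genotype, and the interaction was -2.64 ± 0.31 (adjusted p = 6.04e-05). PUM9 (AT1G35730), an RNA-binding Pumilio protein, reached 6.24, 7.81 and 7.74 TPM in Col-0 without sulfate and at most 0.49 TPM in any other group (interaction -3.09 ± 0.24). Its cdk8-1 response lay close to the floor, at -0.22 after median-of-ratios scaling.

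Of 10 tested indolic glucosinolate genes, 1 had a higher and 2 a lower interaction, and 1 a higher and 4 a lower departure. Over all tested loci the shares were 14.8% and 12.2% for the interaction and 8.56% and 9.56% for the departure. Every list count below is to be read against these shares. CYP79B2 (AT4G39950) encodes an enzyme that turns tryptophan into indole-3-acetaldoxime, the precursor of indolic glucosinolates and camalexin. It was at 43.1, 31.9 and 25.1 TPM in Col-0 with sulfate, 149, 121 and 170.0 TPM in Col-0 without it, 26.8, 9.86 and 17.2 TPM in cdk8-1 with sulfate and 11.9, 14.0 and 18.7 TPM in cdk8-1 without it. The 3 libraries of Col-0 without sulfate were above all others, and the cdk8-1 groups overlapped. The interaction was -2.30 ± 0.42 (adjusted p = 0.00149) and the departure -1.86 ± 0.36 (adjusted p = 0.00402).

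**Figure D2:**
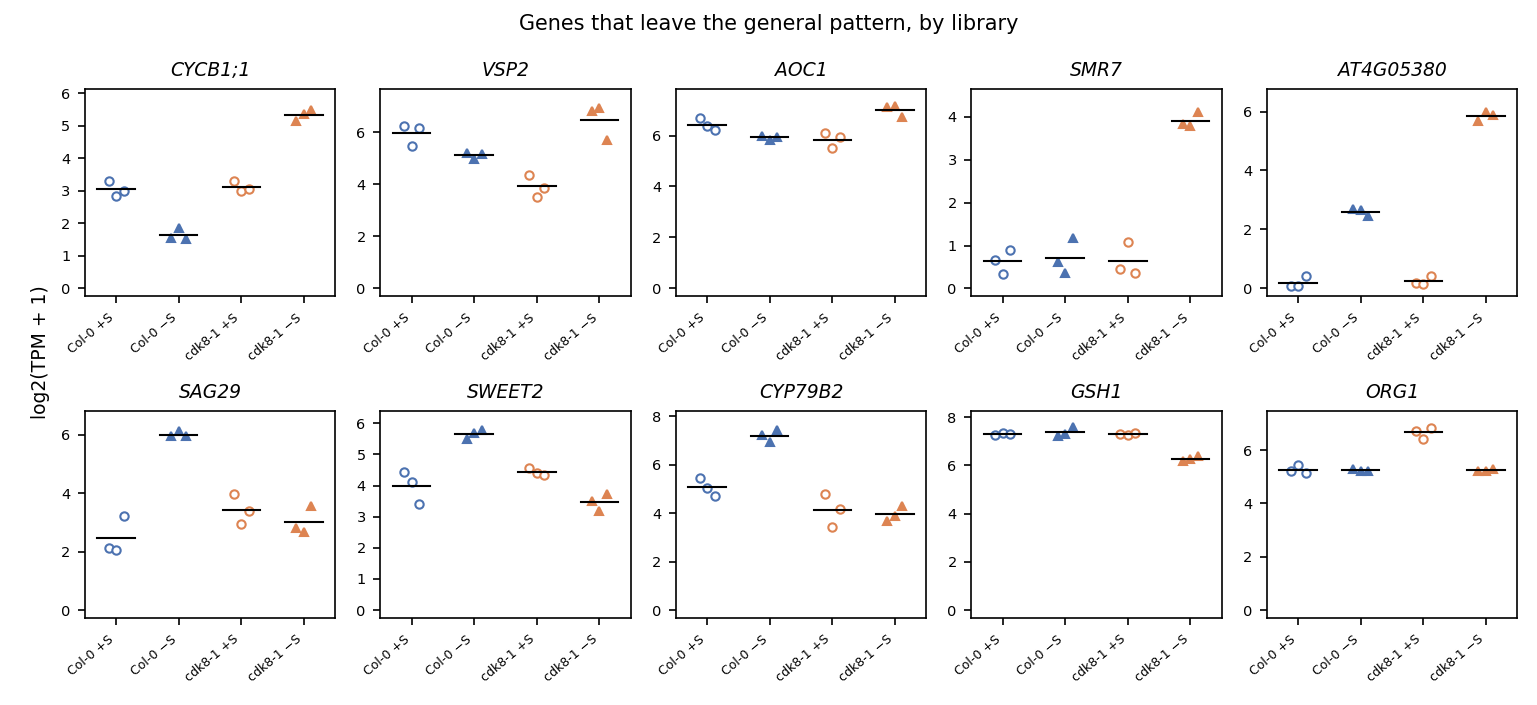
Values of log2(TPM + 1) in each of the 12 libraries for genes that left the general pattern; circles are libraries with sulfate (+S), triangles without (−S), blue is Col-0, orange is cdk8-1 and bars are means of 3. By group mean, CYCB1;1, VSP2, AOC1, SMR7 and AT4G05380 were highest in cdk8-1 without sulfate, SAG29, SWEET2 and CYP79B2 in Col-0 without sulfate, GSH1 was lowest in cdk8-1 without sulfate and ORG1 highest in cdk8-1 with sulfate.

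Responses in cdk8-1 alone comprised 175 loci with a higher and 130 with a lower response, and 304 of the 305 passed the departure test. Here too the definition of the class nearly fixes that outcome. The class is one of size relative to the median locus, and several members also moved in Col-0. After median-of-ratios scaling the Col-0 response was 0.80 for AT4G22960, 0.74 for AT1G30170, 0.51 for PYE and 0.49 for NIT4 (limma adjusted p at most 0.0204). It also passed for ORG1, UMAMIT17, GSH1 and BTS (-0.47 to -0.38), but not for SMR7, AT3G22235, OPCL1 and VSP1. SMR7 (AT3G27630), an inhibitor of cyclin-dependent kinases induced by DNA damage and oxidative stress, was at 13.4, 12.7 and 16.3 TPM in cdk8-1 without sulfate and between 0.253 and 1.26 TPM in the other 9 libraries. Its interaction was 3.20 ± 0.35 (adjusted p = 4.00e-05), and the window before its start held the palindrome 43 bases from the start. AT4G22960, annotated as a FAM63A-like protein, was at 22.9, 26.8 and 21.0 TPM in cdk8-1 without sulfate, 1.23, 1.09 and 0.946 TPM in Col-0 without it and at most 0.581 TPM with sulfate (interaction 3.13 ± 0.19). AT1G30170, a hypothetical protein, reached 32.5, 35.6 and 31.1 TPM against 1.42, 0.807 and 0.363 TPM in Col-0 without sulfate (interaction 4.05 ± 0.26). These genes were near 0 with sulfate in both genotypes.

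AT3G22235, annotated as a cysteine-rich stress tolerance protein, was listed at 0 in 5 of 6 Col-0 libraries and at 0.103 TPM in the sixth. In cdk8-1 it was at 20.8, 19.9 and 61.1 TPM with sulfate and 459, 386 and 383 TPM without it. Its interaction of 3.70 ± 0.44 compares a rise in cdk8-1 with a floor in Col-0, and limma voom on recovered reads, which works on ratios, gave 3.28 (adjusted p = 0.408), against adjusted p values of 8.74e-08 to 0.408 over its alternatives.

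Jasmonate genes appeared here too. OPCL1 (AT1G20510), an acyl-CoA ligase of the last steps of jasmonate synthesis, was at 53.6, 32.6 and 28.0 TPM in Col-0 with sulfate, 60.6, 61.4 and 60.1 TPM without it, 20.1, 11.4 and 16.4 TPM in cdk8-1 with sulfate and 70.5, 62.8 and 67.6 TPM without it. The cdk8-1 libraries were lowest with sulfate and highest without it (interaction 1.32 ± 0.30, adjusted p = 0.0061). VSP1 (AT5G24780), the second vegetative storage protein, was at 8.35, 6.61 and 6.74 TPM in Col-0 without sulfate and 35.2, 35.9 and 21.7 TPM in cdk8-1 without it, with 7.31, 5.04 and 5.80 and 12.6, 5.09 and 5.76 TPM with sulfate (interaction 1.69 ± 0.39).

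Of 19 tested sulfate assimilation genes, 1 had a higher and 3 a lower interaction, against 14.8% and 12.2% of all loci. In the same list 1 had a higher and 6 a lower departure, against 8.56% and 9.56%. Of the lower responses in cdk8-1 alone, GSH1 (AT4G23100), which encodes the first enzyme of glutathione synthesis, was at 150.4, 161 and 157 TPM in Col-0 with sulfate, 149, 156 and 190.3 TPM in Col-0 without it, 155, 152 and 159 TPM in cdk8-1 with sulfate and 71.1, 74.9 and 82.4 TPM in cdk8-1 without it. The first 3 groups overlapped and the fourth lay below all of them, with an interaction of -1.09 ± 0.12 (adjusted p = 3.72e-05). NIT4 (AT5G22300), a nitrilase that acts on cyanoalanine, was at 9.63 ± 1.73 with and 19.5 ± 5.44 TPM without sulfate in Col-0, and at 8.57 ± 1.02 and 2.38 ± 0.0789 TPM in cdk8-1 (interaction -2.42 ± 0.25). UMAMIT17 (AT4G08300), of a transporter family that includes amino acid exporters, fell in cdk8-1 from 16.9 ± 0.296 to 6.54 ± 2.32 TPM and was at 14.7 ± 2.04 and 14.7 ± 0.282 TPM in Col-0 (interaction -1.31 ± 0.25).

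ORG1 (AT5G53450), a protein named for its response to the factor OBP3, had another layout. It was at 35.7, 42.1 and 34.0 TPM in Col-0 with sulfate, 37.9, 35.9 and 36.2 TPM in Col-0 without it and 36.1, 35.8 and 38.1 TPM in cdk8-1 without it, but at 105, 84.2 and 113 TPM in cdk8-1 with sulfate. The gap between genotypes therefore lay with sulfate, and withdrawal removed it (interaction -1.41 ± 0.14, adjusted p = 2.44e-05).

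Several iron deficiency genes were also highest in cdk8-1 with sulfate. In this network bHLH factors of subgroup Ib (BHLH38, BHLH39, BHLH100) are raised when iron is short, PYE is a repressor and BTS an E3 ligase that restrains the response. Of 13 tested members of the list, 7 had a lower and 1 a higher interaction, and 8 had a lower departure, with a median interaction of -0.98 against -0.000855 over all loci. The higher call was NAS4, a nicotianamine synthase (interaction 1.16, adjusted p = 0.0279), which is named after its values were seen and was lost without Col-0 lacking sulfate replicate 3, cdk8-1 with sulfate replicate 2, or either replicate 1 or 2 of cdk8-1 lacking sulfate. BHLH39 (AT3G56980) was at 0.0659, 0.914 and 0.407 TPM in Col-0 with sulfate, 0.0730, 0 and 0.234 TPM in Col-0 without it, 13.2, 7.62 and 19.1 TPM in cdk8-1 with sulfate and 0.712, 0.260 and 0.699 TPM in cdk8-1 without it. Only cdk8-1 with sulfate stood apart, above every other library. BHLH100 (AT2G41240) was at 19.5, 13.1 and 26.4 TPM there and at most 5.31 TPM elsewhere, and BHLH38 (AT3G56970) at 14.2, 7.07 and 18.3 TPM there and at most 1.13 TPM elsewhere. Their interactions were -2.76 ± 0.41, -2.80 ± 0.65 and -2.52 ± 0.42.

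BTS (AT3G18290) was at 109, 89.4 and 107 TPM in cdk8-1 with sulfate and between 49.6 and 62.6 TPM in the other 9 libraries (interaction -0.98 ± 0.14, adjusted p = 2.22e-04), and its window held 3 G-boxes. PYE (AT3G47640) was at 6.04 ± 1.07 TPM in Col-0 with sulfate and 12.2 ± 0.470 TPM without it, against 12.1 ± 0.878 and 10.7 ± 1.76 TPM in cdk8-1 (interaction -1.10 ± 0.19), so Col-0 without sulfate overlapped with cdk8-1 with it. The locus AT2G30766 went from 14.0 ± 2.78 to 0.148 ± 0.00867 TPM in cdk8-1 and from 3.50 ± 1.66 to 0.0604 ± 0.0523 TPM in Col-0 (interaction -1.67 ± 0.33). The number of calls differed between settings. At a pseudocount of 0.1, 3 of the 13 were lower, and limma voom on recovered reads gave 2 lower and 1 higher, with a list median of -0.52. There the interaction was -2.87 (adjusted p = 0.231) for BHLH39, -2.63 (0.441) for BHLH100, -0.92 (0.733) for BHLH38 and -0.52 (0.821) for AT2G30766, against lowest values over the alternatives of 0.000129, 9.91e-05, 0.000129 and 0.000533. At a pseudocount of 0.1 the call was also lost for BHLH100 (adjusted p = 0.111), BHLH38 (0.102) and AT2G30766 (0.0929). BHLH38 has 35.7% of its exonic length under another locus, where the table may have lost reads.

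Stronger responses in cdk8-1 were found at 144 loci with a higher and 94 with a lower interaction, and all 238 passed the departure test. A larger response of the same sign nearly fixes that outcome, so it is no separate support. AT4G05380, annotated as a P-loop nucleoside triphosphate hydrolase, was at 5.48, 5.26 and 4.43 TPM in Col-0 without sulfate and 49.8, 61.6 and 57.3 TPM in cdk8-1 without it, with at most 0.344 TPM in any library with sulfate. The interaction was 3.17 ± 0.20 (adjusted p = 1.02e-06). AT1G52315, annotated as a regulator of Vps4 activity, went from 1.43 ± 0.298 to 8.81 ± 1.00 TPM in Col-0 and from 1.24 ± 0.191 to 46.3 ± 1.42 TPM in cdk8-1 (interaction 2.39 ± 0.17). NUDT24 (AT5G19470), a nudix hydrolase, was at 6.44, 3.21 and 8.15 TPM in Col-0 with sulfate, 31.2, 30.8 and 16.6 TPM without it, 0.651, 0.187 and 0.0627 TPM in cdk8-1 with sulfate and 91.0, 56.8 and 33.4 TPM without it, so the genotypes differed in opposite directions at both supplies (interaction 3.48 ± 0.52).

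DNA damage genes were the list with the highest median departure among those with at least 5 tested members. Of 8 tested members, 7 had a higher interaction and 6 a higher departure, with medians of 1.39 and 1.14, and limma voom on recovered reads also called 7. PARP2 (AT4G02390), a poly(ADP-ribose) polymerase raised by DNA breaks, was at 3.61, 4.88 and 3.49 TPM in Col-0 with sulfate, 9.54, 10.2 and 9.47 TPM without it, 5.32, 4.73 and 3.95 TPM in cdk8-1 with sulfate and 39.4, 44.9 and 40.8 TPM without it. The genotypes overlapped with sulfate and stood apart without it (interaction 1.80 ± 0.17, adjusted p = 1.40e-05). BRCA1 (AT4G21070), a repair gene, fell in Col-0 from 4.89 ± 0.683 to 1.21 ± 0.0403 TPM and was at 5.49 ± 1.63 and 6.63 ± 1.04 TPM in cdk8-1 (interaction 1.67 ± 0.25). The list was split between genes that rose in cdk8-1 (CYCB1;1, SMR7, PARP2) and genes, such as BRCA1, that kept a level Col-0 had lost. Of 21 tested cell division genes, 14 had a higher interaction and 2 a higher departure, with medians of 0.95 and 0.22, and the departures numbered 0 to 3 when single libraries were left out (3 without cdk8-1 with sulfate replicate 1) and 4 in limma voom on recovered reads. CYCB1;2 (AT5G06150), a cyclin close to CYCB1;1, was at 1.07, 0.857 and 0.933 TPM in Col-0 without sulfate and 4.85, 4.49 and 4.60 TPM in cdk8-1 without it, from 35.4 ± 5.37 and 36.7 ± 3.22 TPM (departure 0.22 ± 0.14, adjusted p = 0.306). The low Col-0 values lay near the pseudocount, and its interaction of 1.47 was 2.12 at a pseudocount of 0.1 and 0.64 at 5. How far this set its departure was not tested.

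Most sulfur limitation markers had no interaction past the test. Of 17 tested, 3 had a higher and 2 a lower interaction, against 14.8% and 12.2% of all loci. In limma 5 had a higher and none a lower departure, against 8.56% and 9.56%. The median interaction was 0.08 and the median departure 0.77. Single libraries moved these values: the median interaction was -0.29 without Col-0 with sulfate replicate 1 and 0.51 without Col-0 with sulfate replicate 3 or cdk8-1 with sulfate replicate 1, and the higher departures numbered 9 when that cdk8-1 library was left out and 3 when replicate 2 of cdk8-1 lacking sulfate was. SULTR4;2 (AT3G12520), a vacuolar sulfate exporter, was at 17.9, 17.7 and 19.6 TPM in Col-0 with sulfate, 107, 89.1 and 106 TPM without it, 16.7, 16.8 and 14.2 TPM in cdk8-1 with sulfate and 138, 138 and 137 TPM without it. The genotypes did not overlap at either supply (interaction 0.65 ± 0.12, adjusted p = 0.00145). Its paralogue SULTR4;1 (AT5G13550) went the other way, from 30.3 ± 1.68 to 184 ± 9.09 TPM in Col-0 and from 30.2 ± 0.527 to 127 ± 2.63 TPM in cdk8-1 (interaction -0.53 ± 0.08, departure 0.02 ± 0.07). The uptake transporter SULTR1;1 (AT4G08620), known from roots, reached 24.7 ± 5.72 TPM in Col-0, against 11.7 ± 2.34 TPM in cdk8-1 without sulfate (interaction -1.17 ± 0.25), a call that limma voom did not make (adjusted p = 0.181, against a lowest of 0.00285 over its alternatives).

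GGCT2;1 (AT5G26220), which breaks down glutathione, was at 896, 809 and 869 TPM in Col-0 without sulfate and 899, 798 and 813 TPM in cdk8-1 without it, where the genotypes overlapped. With sulfate it was at 22.5, 10.8 and 10.0 and 8.90, 3.02 and 2.34 TPM, with replicate 1 highest in both genotypes. Its interaction of 1.47 ± 0.49 (adjusted p = 0.0433) passed in 9 of 22 alternatives (adjusted p 0.00154 to 0.0978), and without Col-0 with sulfate replicate 1 it was 1.12 (adjusted p = 0.0822). SERAT2;1 (AT1G55920), a serine acetyltransferase of cysteine synthesis, did not pass the departure test, with 186 ± 2.44 TPM in Col-0 and with 113 ± 5.74 TPM in cdk8-1 without sulfate and an interaction of -0.55 ± 0.16 that missed the threshold without cdk8-1 without sulfate replicate 2 (-0.52, adjusted p = 0.0509, over alternatives from 0.00855).

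Of 24 tested aliphatic glucosinolate genes, 2 had a higher and 3 a lower interaction, against 14.8% and 12.2% of all loci. None had a higher and 6 a lower departure, against 8.56% and 9.56%. The higher interactions numbered 6 without cdk8-1 with sulfate replicate 1, 5 without Col-0 with sulfate replicate 3 and 1 without any of the other libraries. MAM1 (AT5G23010), which elongates methionine for short-chain glucosinolates, was at 292, 306 and 255 TPM in Col-0 with sulfate, 24.6, 16.2 and 16.9 TPM without it, 238, 208 and 199.9 TPM in cdk8-1 with sulfate and 7.93, 8.31 and 7.27 TPM without it. The genotypes did not overlap at either supply (interaction -0.77 ± 0.19, departure -1.93 ± 0.16). MAM3 (AT5G23020), the enzyme for longer chains, rose in Col-0 from 36.6 ± 8.27 to 80.9 ± 5.91 TPM and was at 70.4 ± 6.88 and 70.9 ± 10.4 TPM in cdk8-1 (interaction -1.14 ± 0.21). The beta-glucosidase BGLU30 (AT3G60140), an atypical myrosinase that frees sulfur from glucosinolates, rose without sulfate to 3098, 3144 and 3446 TPM in the Col-0 libraries and 2237, 2255 and 2319 TPM in those of cdk8-1, from at most 0.458 TPM with it. Its interaction was lower (-0.66 ± 0.11) while its departure was higher (2.26 ± 0.10), since its response of 10.30 in cdk8-1 was nearer to Col-0 (10.95) than the line gives. In limma voom the interaction was -1.16 (adjusted p = 0.143, from 4.89e-05 over its alternatives). The clock gene LHY (AT1G01060) was higher in cdk8-1 with sulfate (23.0, 20.4 and 21.1 against 11.8, 6.69 and 5.86 TPM) and overlapped between genotypes without it (5.93, 4.27 and 3.92 and 5.47, 3.72 and 3.26 TPM), with an interaction of -1.20 ± 0.32 (adjusted p = 0.0143).

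Of the 996 responses in Col-0 alone, 497 passed the departure test. This class too is one of size relative to the median locus. After median-of-ratios scaling the cdk8-1 response passed for MYB122 (0.62), MAM3 (-0.45) and TSB1 (-0.39), with limma adjusted p at most 0.0163. For the other named members of the class it did not pass. Heat shock genes fell in this class or among the weaker responses. All 9 tested members of the list had a lower interaction and 8 a lower departure, with medians of -2.17 and -1.30. HSP101 (AT1G74310), the chaperone that dissolves protein aggregates, was at 3.48, 3.20 and 3.04 TPM in Col-0 with sulfate, 19.4, 25.9 and 31.5 TPM in Col-0 without it, 3.92, 3.85 and 4.56 TPM in cdk8-1 with sulfate and 5.35, 5.87 and 5.34 TPM in cdk8-1 without it. Col-0 without sulfate stood above all other libraries (interaction -2.27 ± 0.21, adjusted p = 9.50e-06). The heat stress factor HSFA2 (AT2G26150) reached 4.35, 6.92 and 7.76 TPM in Col-0 without sulfate and at most 0.403 TPM elsewhere (interaction -2.26 ± 0.28). HSP90.1 (AT5G52640), a chaperone of signalling proteins, went from 4.18 ± 1.96 to 149 ± 16.0 TPM in Col-0 and from 4.98 ± 0.617 to 36.5 ± 5.48 TPM in cdk8-1 (interaction -2.28 ± 0.30), and the small heat shock protein HSP17.6A (AT5G12030) reached 30.9 ± 10.2 and 3.00 ± 0.882 TPM without sulfate (interaction -2.82 ± 0.35). The small heat shock proteins and HSFA2 were near 0 with sulfate, and the number of calls differed between settings: 7 of 9 had a lower interaction and 3 a lower departure at a pseudocount of 0.1, and limma voom on recovered reads called 3 of 8 members at a list median of -2.19. It gave -2.21 for HSFA2 (adjusted p = 0.247) and -1.98 for HSP17.6A (0.454), whose lowest adjusted p values over the alternatives were 4.46e-05 and 2.53e-05.

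Tryptophan synthesis feeds indole compounds and camalexin. Of 8 tested members, 7 had a lower interaction and 7 a lower departure, with medians of -0.91 and -0.62, and limma voom on recovered reads gave 7 and 7 as well. TSB1 (AT5G54810), a tryptophan synthase beta subunit, was at 139, 169 and 145 TPM in Col-0 with sulfate, 376, 368 and 450.4 TPM in Col-0 without it, 139, 125 and 129.7 TPM in cdk8-1 with sulfate and 128, 134 and 153 TPM in cdk8-1 without it. Col-0 without sulfate stood above the other groups (interaction -1.32 ± 0.14, adjusted p = 2.62e-05). TSA1 (AT3G54640), the alpha subunit, rose from 51.4 ± 7.58 to 185 ± 14.7 TPM in Col-0 and was at 54.0 ± 3.70 and 66.7 ± 9.13 TPM in cdk8-1 (interaction -1.54 ± 0.16). TSB2 (AT4G27070) reached 46.6 ± 3.51 TPM in Col-0, against 17.2 ± 2.03 TPM in cdk8-1, and PAT1 (AT5G17990), an earlier step, 146 ± 10.6 and 72.3 ± 2.68 TPM (interactions -1.63 ± 0.19 and -0.89 ± 0.10).

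Of 6 tested camalexin genes, 4 had a lower interaction and 1 a lower departure, with 2 and none in limma voom on recovered reads. CYP71A13 (AT2G30770) was at 23.9, 13.8 and 22.0 TPM in Col-0 without sulfate and 0.579, 0.528 and 1.26 TPM in cdk8-1 without it (interaction -3.65 ± 0.36, departure -2.69 ± 0.31), although 22.1% of its exonic length lies under another locus. Its neighbour CYP71A12 (AT2G30750), of the same step, rose in both genotypes, to 1194 ± 121 TPM in Col-0 and to 447 ± 77.2 TPM in cdk8-1 (interaction -2.21 ± 0.32, departure -0.53 ± 0.28, adjusted p = 0.221), and the copies are alike enough that reads could be misplaced. PAD3 (AT3G26830), which makes camalexin, did not pass the departure test (237 ± 25.7 against 52.8 ± 15.6 TPM without sulfate, departure -0.20 ± 0.28, adjusted p = 0.689). MYB122 (AT1G74080), a regulator of indolic glucosinolate and camalexin genes, was at 7.60, 7.08 and 9.64 TPM in Col-0 without sulfate and 0.677, 0.505 and 0.907 TPM in cdk8-1 (interaction -2.37 ± 0.22), with an adjusted p of 0.0655 in limma voom against 3.47e-06 to 0.0655 over its alternatives.

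Some falls were seen in Col-0 alone. AT5G12940, a leucine-rich repeat protein, was at 21.3, 21.8 and 25.7 TPM in Col-0 with sulfate, 2.92, 2.59 and 2.68 TPM without it, 6.83, 4.99 and 5.35 TPM in cdk8-1 with sulfate and 11.2, 8.11 and 6.80 TPM without it. Col-0 was higher than cdk8-1 with sulfate and lower without it (interaction 3.19 ± 0.22). ADS4 (AT1G06350), a fatty acid desaturase, went from 2.49 ± 0.169 to 0.0630 ± 0.0582 TPM in Col-0 and from 2.98 ± 1.32 to 5.63 ± 1.19 TPM in cdk8-1 (interaction 2.50 ± 0.33), and IAA29 (AT4G32280), an auxin signalling repressor, from 4.32 ± 1.25 to 1.14 ± 0.510 and from 2.43 ± 0.932 to 3.70 ± 1.70 TPM (interaction 1.75 ± 0.41).

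On the log2(TPM + 1) scale the largest interaction of the 19127 loci was a rise that cdk8-1 nearly lacked. Among the named genes, PUM9 and AT3G12410 exceeded it in size at a pseudocount of 0.1 and in limma voom, as did PGAZAT and LTP4 in the latter. ABCG40 (AT1G15520), an ABC transporter that imports abscisic acid, was at 1.64, 1.40 and 1.56 TPM in Col-0 with sulfate, 304, 322 and 369 TPM in Col-0 without it, 1.15, 1.43 and 1.62 TPM in cdk8-1 with sulfate and 3.63, 4.10 and 6.63 TPM in cdk8-1 without it. Its response was 6.57 in Col-0 and 0.79 in cdk8-1, an interaction of -5.79 ± 0.23 (adjusted p = 4.52e-08) and a departure of -4.04 ± 0.20. CSLG2 (AT4G24000), of the cellulose synthase-like family, reached 27.7, 32.6 and 38.6 TPM in Col-0, against 1.20, 1.31 and 1.77 TPM in cdk8-1 (interaction -3.75 ± 0.21; adjusted p = 0.0971 in limma voom, from 9.24e-08 over its alternatives). PGAZAT (AT2G41850), a polygalacturonase active in organ shedding, reached 19.5, 33.1 and 34.1 and 1.05, 1.49 and 1.40 TPM (interaction -3.87 ± 0.29).

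Jasmonate genes were taken by role, and the difference between roles was not tested. Of 14 tested synthesis genes, 4 had a higher and 1 a lower interaction, with a median of 0.25. Of 9 tested catabolism genes none had a higher and 5 a lower interaction, with a median of -0.71, and limma voom on recovered reads called 3 lower. The departure was higher at 5 and lower at 1 of the synthesis genes. Among catabolism genes none had a higher and 2 a lower departure (0 to 4 lower over the settings, none in limma voom), and 3 of the 5 interaction calls did not pass the departure test. The 11 JAZ repressors had 1 higher interaction call, JAZ9 (AT1G70700), which fell to 23.4 ± 3.41 TPM in Col-0 and to 26.5 ± 3.12 TPM in cdk8-1 (interaction 0.98 ± 0.23, departure 0.16 ± 0.20, adjusted p = 0.654). Within synthesis, OPR3 (AT2G06050), a reductase, was at 70.4 ± 2.56 with and 74.1 ± 3.13 TPM without sulfate in Col-0, and at 43.3 ± 8.17 and 82.9 ± 2.69 TPM in cdk8-1 (interaction 0.86 ± 0.15), while ACX1 (AT4G16760), of beta-oxidation, reached 324 ± 14.2 TPM in Col-0, against 190.5 ± 12.6 TPM in cdk8-1 (interaction -0.75 ± 0.11). Among catabolism genes, AT2G38240, annotated as an oxygenase, was at 47.9, 77.0 and 109 TPM in Col-0 without sulfate and 3.11, 4.61 and 5.57 TPM in cdk8-1 without it, and JRG21 (AT3G55970), a jasmonate-regulated dioxygenase, at 39.2, 41.9 and 60.1 and 2.97, 6.06 and 11.1 TPM. All of these libraries of Col-0 were above those of cdk8-1, and the interactions were -3.69 ± 0.36 and -3.03 ± 0.51, the first with an adjusted p of 0.366 in limma voom (from 5.57e-06 over its alternatives). The hydroxyjasmonate sulfotransferase ST2A (AT5G07010) reached 32.5 ± 7.18 and 13.0 ± 1.60 TPM (interaction -1.71 ± 0.31).

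Among jasmonate response genes, 4 of 18 tested had a higher interaction, VSP1 and VSP2 among them, and 5 a lower one. The lower calls numbered 3 without any of 4 single libraries (Col-0 without sulfate replicates 2 and 3, cdk8-1 with sulfate replicate 1 and without it replicate 1) and 1 in limma voom on recovered reads. The departure was higher at 4 and lower at 1 of the 18 genes (3 to 5 and 0 to 4 over the settings). NATA1 (AT2G39030), which acetylates ornithine, was at 98.2, 114 and 124 TPM in Col-0 without sulfate and 12.4, 11.5 and 16.2 TPM in cdk8-1 without it (interaction -2.99 ± 0.40, departure -1.46 ± 0.35), with an adjusted p of 0.0781 in limma voom (from 5.23e-07 over its alternatives). The factor NAC019 (AT1G52890) reached 81.9 ± 14.4 and 11.0 ± 2.21 TPM (interaction -1.82 ± 0.29) and lost the call at a pseudocount of 0.1 (adjusted p = 0.0781) and in limma voom (0.192, from 3.61e-06).

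**Figure D3:**
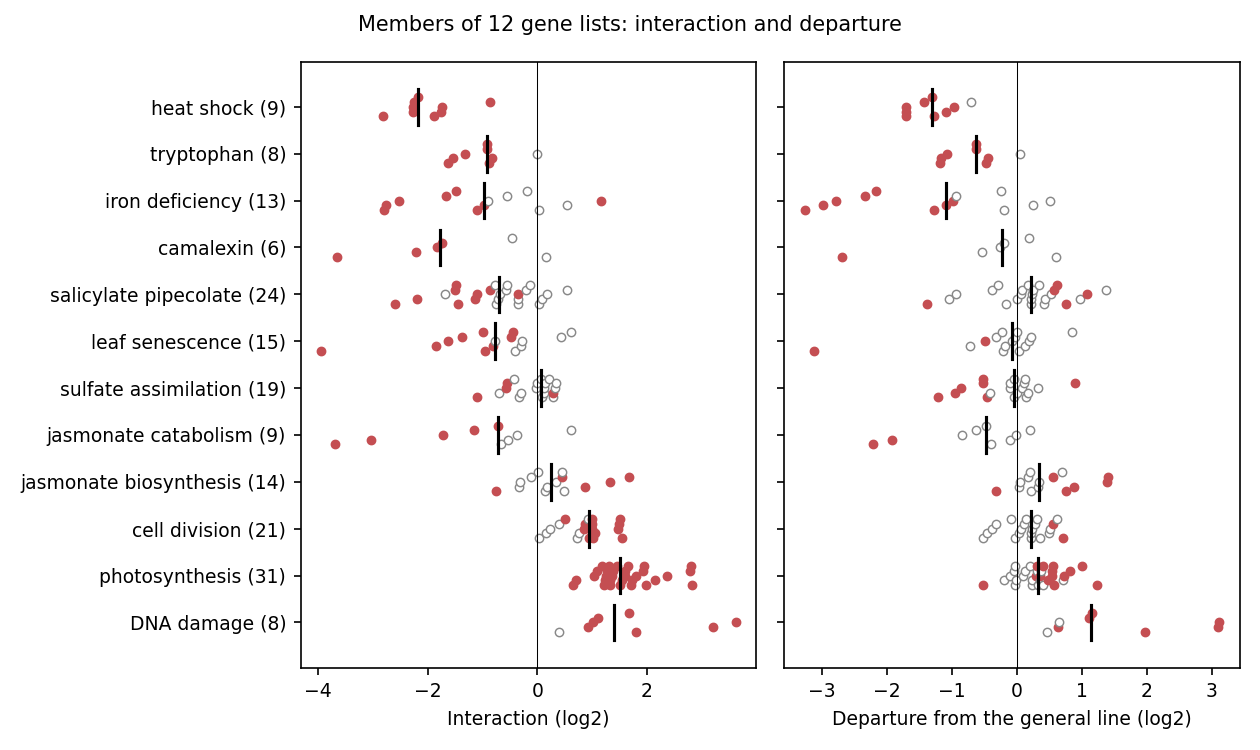
Interaction (left) and departure from the general line (right), in log2, of each tested member of 12 gene lists, with the number tested in brackets; red points passed an adjusted p of 0.05 and black bars are medians. The medians of photosynthesis, salicylate and senescence genes were 1.50, -0.70 and -0.77 on the left and 0.33, 0.23 and -0.07 on the right, while those of heat shock, tryptophan, iron deficiency and DNA damage genes were beyond 0.5 in size on both sides.

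Other falls were far smaller in cdk8-1 than the line gives. AT5G22580, a stress-responsive protein, was at 80.2, 75.3 and 75.1 TPM in Col-0 with sulfate, 3.47, 4.29 and 3.38 TPM in Col-0 without it, 51.1, 46.7 and 49.6 TPM in cdk8-1 with sulfate and 34.7, 37.6 and 35.1 TPM in cdk8-1 without it. None of the groups overlapped, and cdk8-1 kept most of the transcript that Col-0 lost (interaction 3.60 ± 0.11, adjusted p = 7.22e-09). RD22 (AT5G25610), a drought- and abscisic acid-responsive gene, fell to 45.8 ± 5.60 TPM in Col-0 and was at 152 ± 38.1 TPM in cdk8-1 (interaction 2.40 ± 0.20). BGLU18 (AT1G52400), a beta-glucosidase of endoplasmic reticulum bodies that releases abscisic acid, was at 8.32, 19.9 and 11.1 TPM in Col-0 without sulfate and a variable 54.1, 161 and 67.0 TPM in cdk8-1 (interaction 2.77 ± 0.49).

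**Figure D4:**
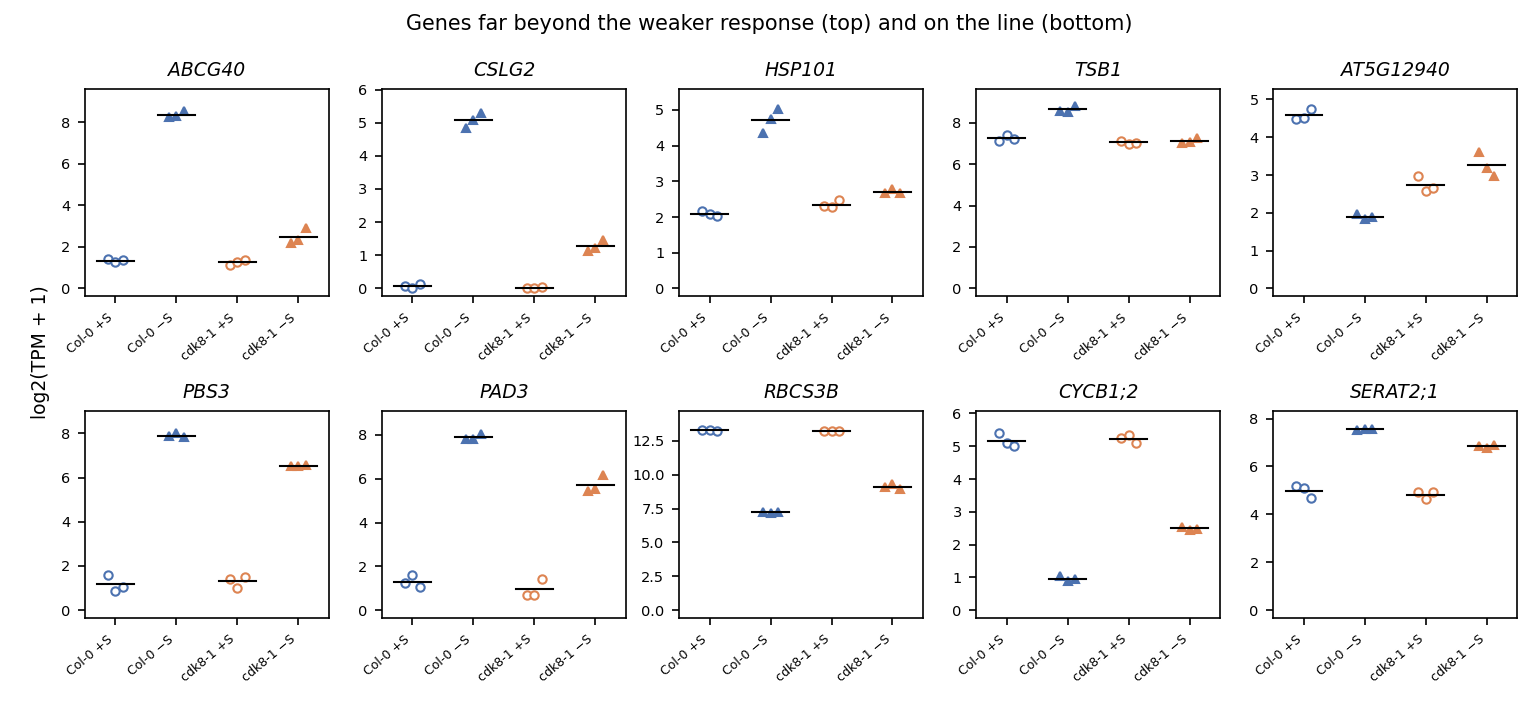
Values of log2(TPM + 1) in each of the 12 libraries, with symbols as in the other plot of libraries; the upper row holds genes whose cdk8-1 response was far from the general line and the lower row genes with no departure past the test. ABCG40, CSLG2, HSP101 and TSB1 were high in Col-0 without sulfate alone, whereas PBS3, PAD3, RBCS3B, CYCB1;2 and SERAT2;1 moved in both genotypes, less in cdk8-1.

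Among photosynthesis, salicylate and senescence genes, interaction calls outnumbered departure calls. All 31 photosynthesis genes had a higher interaction, that is a smaller fall in cdk8-1, with a median of 1.50. Of the 31, 13 had a higher and 1 a lower departure, against 8.56% and 9.56% of all loci, with a median of 0.33. The number with a higher departure was 8 without cdk8-1 with sulfate replicate 1, 7 at a pseudocount of 0.1 and 24 after quantile normalization. LHCB2.3 had the largest higher departure in the class of weaker responses, among loci past both tests with a group mean of at least 5 TPM. RBCS3B (AT5G38410), a small subunit of Rubisco, was at 151, 142 and 152 TPM in Col-0 without sulfate and 543, 635 and 483 TPM in cdk8-1 without it, from 10208, 10090.2 and 9686 and 9514, 9569 and 9626 TPM. The fall in cdk8-1 was smaller by 1.95 ± 0.12, but the departure was 0.20 ± 0.11 (adjusted p = 0.217). PSAF (AT1G31330), a photosystem I subunit, was left at 434 ± 10.6 TPM by Col-0 and at 878 ± 76.9 TPM by cdk8-1 without sulfate (interaction 1.71 ± 0.10). GLN2 (AT5G35630), the plastid glutamine synthetase, had an interaction of 0.84 ± 0.07 and a departure of -0.10 ± 0.06, and the nitrate transporter NRT1.7 (AT1G69870), which moves nitrate out of old leaves, -0.80 ± 0.12 and -0.01 ± 0.11.

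Salicylate and pipecolate genes had 9 lower interactions and none higher among 24 tested, with a median of -0.70, and 4 higher and 1 lower departures (7 higher without cdk8-1 with sulfate replicate 3). PBS3 (AT5G13320), a salicylate synthesis enzyme, was at 233, 255 and 225 TPM in Col-0 without sulfate and 91.6, 89.7 and 93.0 TPM in cdk8-1 without it, with a departure of 0.18 ± 0.21 (adjusted p = 0.622). SARD1 (AT1G73805), a factor that turns on its synthesis, reached 171 ± 12.1 and 116 ± 5.98 TPM (interaction -1.09 ± 0.21, departure 0.34 ± 0.19). The 1 lower departure was FMO1 (AT1G19250), which makes N-hydroxypipecolate, at 36.1, 39.1 and 35.7 TPM in Col-0 and at 6.78, 4.04 and 6.90 TPM in cdk8-1 (interaction -2.59 ± 0.30, departure -1.37 ± 0.26; limma voom adjusted p = 0.0638, from 9.13e-07 over its alternatives). Senescence genes had 9 lower interactions among 15 tested and 2 lower departures, SAG29 among these. SRG1 (AT1G17020), a senescence-related dioxygenase, reached 179.8 ± 2.24 and 64.2 ± 7.27 TPM (departure -0.07 ± 0.13), and NYE1 (AT4G22920), which starts chlorophyll breakdown, 134 ± 2.62 and 71.4 ± 3.56 TPM (interaction -0.999 ± 0.09, departure -0.23 ± 0.08).

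The genotypes differed mostly without sulfate. Over all loci 13.7% had a genotype difference with sulfate and 41.3% without it. Among the interaction calls, the difference passed without sulfate alone at 42 of 69 opposite loci, 195 of 305 with a response in cdk8-1 alone, 145 of 238 stronger, 2388 of 3168 weaker and 654 of 996 Col-0-alone loci. It passed with sulfate alone at 9, 45, 57, 250 and 134 of them, the layout of ORG1, BTS and BHLH39. The interaction and these differences share libraries, so the counts describe where the gap lay and are not separate evidence for it.

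**Figure D5:**
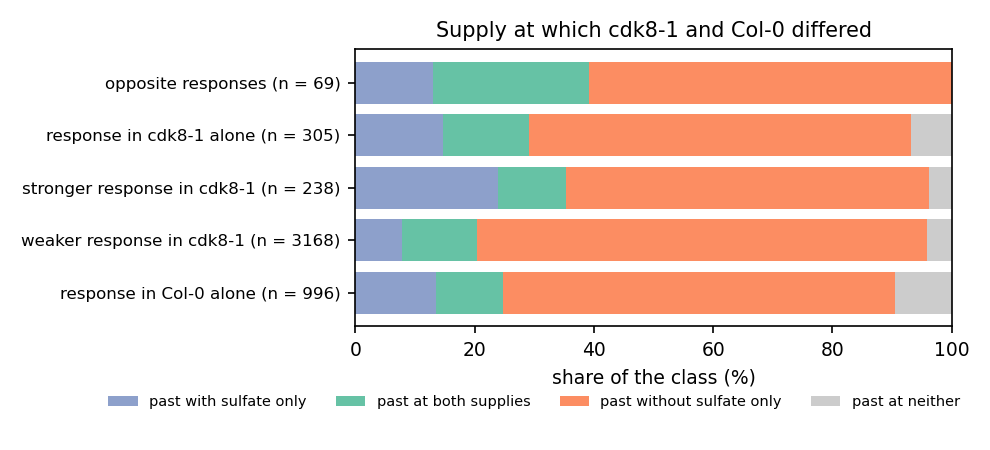
Share of each class of interaction calls (horizontal bars, in percent) by the supply at which cdk8-1 and Col-0 differed past an adjusted p of 0.05. Differences without sulfate alone made up the largest part in each of the 5 classes, and differences with sulfate alone reached 57 of 238 loci among the stronger responses.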

How the data were processed

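The authors deposited TPM values per locus for 12 shoot libraries, from directional mRNA libraries per the labels' protocols. The submitters' processing notes name STAR 2.7.11b, featureCounts 2.0.8 and DESeq2 1.46; no source used here gives the build or annotation. TPM is a share of each library's total, so differences are relative. The members and gene lists were chosen with earlier results of these data known. Loci with a mean of at least 1 TPM were tested on log2(TPM + 1), a scale that understates changes of low genes. Limma 3.58.1 (R 4.3.3) fitted 4 group means with trended moderation, two-sided, and p-values were adjusted by Benjamini-Hochberg over 19127 loci. The departure contrast used the fitted general line with its intercept of 0.130 and took the line as known, so its errors leave out the line's own. Reads recovered from the TPM steps were whole within 0.01 read for 99.4% of values above 0, and limma voom on them was an alternative. A 1 kb locus with 1 read had 0.0710 to 0.0962 TPM. The TPM of Col-0 with sulfate replicate 3 summed to 1004125, above the other libraries' total. The rule for naming took CDK8, those with the largest departure in each class among loci past both tests with a group mean of at least 5 TPM, and up to 4 called members of each list. The text names a subset of these. NAS4 and the loci at the threshold were named outside the rule. RefSeq symbols matched 99.1% of loci. The procedure was tested on simulated data. Alternatives were other pseudocounts, filters and scalings, a replicate block, single libraries left out and other moderation.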

Additional observations from a re-analysis of the deposited data

Results flagged for a closer look

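The response to sulfate withdrawal differed between genotypes, by limma's interaction test, at 5171 of 19127 loci. The named genes that met the same test are given here with their interaction, the cdk8-1 response minus the Col-0 response in log2. Among opposite responses, the interaction was 3.69 for LTP4, 3.62 for CYCB1;1, 3.39 for VSP2, 3.20 for AT3G12410, 3.25 for ABCA10, 2.81 for AT3G53980, 1.68 for AOC1 and 1.42 for IAA19. It was -3.94 for SAG29, -3.09 for PUM9, -2.64 for SWEET2 and -2.30 for CYP79B2. Among responses in cdk8-1 alone, the interaction was 4.05 for AT1G30170, 3.70 for AT3G22235, 3.13 for AT4G22960, 3.20 for SMR7, 1.32 for OPCL1, 1.69 for VSP1, -2.42 for NIT4 and -1.41 for ORG1. Further values were -1.31 for UMAMIT17, -1.09 for GSH1, -0.98 for BTS and -1.10 for PYE. This class is set by response sizes relative to the median locus, so Col-0 may have moved as well. Among stronger responses in cdk8-1, the interaction was 3.48 for NUDT24, 3.17 for AT4G05380, 1.47 for GGCT2;1, 2.39 for AT1G52315, 1.80 for PARP2, 0.65 for SULTR4;2, -2.80 for BHLH100 and -2.76 for BHLH39. Others were -2.52 for BHLH38, -0.77 for MAM1, -1.20 for LHY and -1.67 for AT2G30766. Among responses in Col-0 alone, the interaction was -3.65 for CYP71A13, -2.37 for MYB122, -1.54 for TSA1, -1.32 for TSB1, -2.27 for HSP101, -2.26 for HSFA2, 3.19 for AT5G12940 and 2.50 for ADS4. It was also -1.14 for MAM3, 1.67 for BRCA1, -1.63 for TSB2, -0.89 for PAT1 and 1.75 for IAA29. Sizes relative to the median locus set this class as well, so cdk8-1 may have moved. Among weaker responses, the interaction was -5.79 for ABCG40, -3.75 for CSLG2, -3.87 for PGAZAT, 3.60 for AT5G22580, -2.82 for HSP17.6A, -2.28 for HSP90.1, -2.99 for NATA1 and -2.59 for FMO1. The next values were -0.66 for BGLU30, 2.40 for RD22, 2.77 for BGLU18, 1.95 for RBCS3B, -1.49 for PBS3, -1.83 for PAD3, 1.47 for CYCB1;2 and 0.84 for GLN2. Further members had -0.80 for NRT1.7, -0.55 for SERAT2;1, -3.69 for AT2G38240, -3.03 for JRG21, -1.71 for ST2A, -0.75 for ACX1, 0.98 for JAZ9 and -1.82 for NAC019. The remaining values were -2.21 for CYP71A12, -1.63 for SRG1, -0.999 for NYE1, -1.09 for SARD1, -0.53 for SULTR4;1, -1.17 for SULTR1;1 and 1.71 for PSAF. With small responses in both genotypes, the interaction was 0.86 for OPR3.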

How the results depend on the processing

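The interaction count was 4265 to 5266 and the departure count 2633 to 3671 when single libraries were left out, and the general slope 0.723 to 0.741. The same omissions gave 68 to 77 opposite responses, 240 to 320 in cdk8-1 alone, 185 to 255 stronger, 2729 to 3150 weaker and 789 to 1055 in Col-0 alone. Opposite responses numbered 19 at a pseudocount of 5, 30 at a mean of at least 5 TPM and 5 with a response size of 1, where stronger responses numbered 126. The orthogonal slope was 0.773. With a replicate block, genes past the interaction test numbered 5718 and genes past the departure test 3980, at a general slope of 0.733. The block gave 71 opposite responses, 346 for a response in cdk8-1 alone, 291 for a stronger response in cdk8-1, 3438 for a weaker response in cdk8-1 and 1092 for a response in Col-0 alone. Same-numbered libraries correlated at -0.00434 to 0.305 in their deviations, over 0.1 in 7 of 18 pairs. Libraries of different number correlated at -0.240 to 0.125. No source used here states that the numbers pair libraries, so the main fit held no block. Of 1791 values of named genes under alternatives, 1756 kept their direction and side of the threshold, 34 lost the call and 1 reversed. Counted by gene, 63 of 82 kept both under every alternative. The reversal was the CDK8 interaction, never called, at 0.0154 without cdk8-1 with sulfate replicate 3 and -0.28 without its replicate 1, and the cause was not tested. Loci with exons under another locus were left out as an alternative chosen after seeing the data. Depth limits genes near 0 TPM, whose calls were most often lost in limma voom on recovered reads.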

Other observations

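Several lists not described above had mostly higher interactions. Of 10 tested alpha-expansins, which loosen cell walls, 7 had a higher interaction and 3 a higher departure, with medians of 1.42 and 0.63. Of 8 tested Aux/IAA genes, repressors of auxin signalling, 5 had a higher interaction and 3 a higher departure, with medians of 1.20 and 0.66. The higher departures numbered 1 when replicate 1 or 2 of cdk8-1 given sulfate, or replicate 2 of cdk8-1 lacking it, was left out, and 5 after median-of-ratios scaling. All 7 tested cuticular wax genes had a higher interaction (6 at a pseudocount of 0.1) and 2 a higher departure, with medians of 0.67 and 0.20, but leaving out single libraries gave 5 to 7 and 1 to 2. Of 17 tested Mediator subunits and related genes, none had a higher and 1 a lower interaction (0 to 1 and 0 to 2 without single libraries). The background is 14.8% of loci with a higher and 12.2% with a lower interaction. For the departure it is 8.56% and 9.56%.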
